A study of Equus caballus with 2 samples.

Results

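The fibrillar collagen chains are the 9 genes *COL1A1*, *COL1A2*, *COL3A1*, *COL5A1*, *COL5A2*, *COL5A3*, *COL11A1*, *COL24A1* and *COL27A1*, taken by symbol from the 21426 genes listed for each library. They were followed in equine endometrial fibroblasts by single cell RNA sequencing, with and without transforming growth factor beta 1 (TGF-β1). Fibroblasts from 4 mares with healthy or mildly fibrotic endometrium were grown on hydrogels coated with type I collagen, first with serum and then, for the last 24 h, with albumin in its place. The control cells received nothing further in those 24 h, and the treated cells received 10 ng/ml human recombinant TGF-β1. The cells of the 4 mares were pooled before loading, so each condition was 1 droplet library of unlabelled cells, and mares were not assigned to cells here. With 1 library per condition there is no replicate, no test was made, and library and treatment cannot be told apart. Intervals are at the 95% level and cover counting error only.

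Fibrillar collagens are made as procollagen chains that wind in groups of 3 into a triple helix in the endoplasmic reticulum, are trimmed outside the cell and assemble into the fibrils that give connective tissue its tensile strength. *COL1A1* and *COL1A2* encode the α1 and α2 chains of type I collagen, the main component of scar tissue, and *COL3A1* encodes the single chain of type III collagen, which is abundant in the stroma of the uterus. Types V (*COL5A1*, *COL5A2*, *COL5A3*) and XI (*COL11A1*) are minor partners that nucleate fibrils and limit their diameter, while types XXIV (*COL24A1*) and XXVII (*COL27A1*) are less studied members known mainly from bone and cartilage. TGF-β1 is a well-known inducer of type I and type III collagen in fibroblasts. The libraries count unique molecular identifiers (UMIs) at the 3′ end of transcripts. Capture can differ between genes. The ratio of 2 chains is therefore read only between libraries or between cells, never as a number of chains per molecule.

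The study's filters were used, which ask of a cell 20000 UMIs or more, 3500 genes or more and less than 4% mitochondrial UMIs. They left 3865 of 4384 control barcodes and 4513 of 5124 TGF-β1 barcodes, with 210497250 and 219731144 UMIs and medians of 50313 and 43142 UMIs per cell. In all, 6 barcode sequences occurred in both libraries, 2 of them in kept cells. All 6 fibroblast markers were expressed, *VIM*, *DCN* and *LUM* in over 99% of cells. Of these, 5 were lower in the TGF-β1 library (*VIM* 4399 and 2240, *DCN* 2098 and 1795 UMIs per 1000000, CPM), and *LUM* was at 551 and 564 CPM. None of the 4 epithelial, 5 endothelial and 5 immune markers found by symbol was above 0.665 CPM in either library. Of the pericyte or smooth muscle markers, *DES* was at 646 CPM in the control and 569 CPM in the TGF-β1 library, *RGS5* at 51.7 and 61.1 CPM, *MYH11* at 42.9 and 25.3 CPM, *MCAM* at 5.78 and 1.75 CPM and *NOTCH3* at 0.200 and 0.141 CPM. The part of these markers in the results was not tested.

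The chains of types I and III were each among the 25 genes with the most UMIs in both libraries, and each was moderately higher in the TGF-β1 library. *COL1A1* had 1180489 UMIs (5608 CPM) in control cells and 1401031 UMIs (6376 CPM) in TGF-β1 cells and ranked 10 of all genes in both. The ratio of TGF-β1 to control CPM, on the log2 scale, was 0.19 (0.18 to 0.19). *COL1A2* had 895869 UMIs (4256 CPM) and 1117031 UMIs (5084 CPM), a log2 ratio of 0.26 (0.25 to 0.26), and moved from rank 25 to rank 16. *COL3A1* had 937873 UMIs (4456 CPM) and 1226808 UMIs (5583 CPM), a log2 ratio of 0.33 (0.32 to 0.33), and moved from rank 21 to rank 14. Over all kept cells the ratio of type III was thus above those of both type I chains, and the 3 counting intervals did not overlap. This order did not hold in every group of cells described below.

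The type V chains did not share 1 direction. *COL5A1*, the α1 chain present in nearly all type V molecules, had 56900 UMIs (270 CPM) in control cells and 88227 UMIs (402 CPM) in TGF-β1 cells, and its log2 ratio of 0.57 (0.56 to 0.59) was the largest of the 5 abundant chains. *COL5A2*, the α2 chain that pairs with it, had 120299 UMIs (572 CPM) and 145593 UMIs (663 CPM), with a log2 ratio of 0.21 (0.20 to 0.22). *COL5A3*, an α3 chain of restricted expression, was the 1 chain that was lower with TGF-β1. It had 651 UMIs (3.09 CPM) in control cells and 208 UMIs (0.947 CPM) in TGF-β1 cells, a log2 ratio of -1.71 (-1.94 to -1.48), or 3.27-fold lower.

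The remaining chains were rare. *COL11A1* had 8196 UMIs (38.9 CPM) in the control and 10186 UMIs (46.4 CPM) in the TGF-β1 library, with a log2 ratio of 0.25 (0.21 to 0.29), and *COL27A1* had 3310 UMIs (15.7 CPM) and 4032 UMIs (18.35 CPM), with a log2 ratio of 0.22 (0.16 to 0.29). *COL24A1* stood apart with 411 UMIs (1.95 CPM) in control cells and 2163 UMIs (9.84 CPM) in TGF-β1 cells, a log2 ratio of 2.33 (2.18 to 2.49), or 5.04-fold (4.53 to 5.62) higher. The 2 other fibrillar chain genes listed, *COL2A1* and *COL11A2*, which are typical of cartilage, had 1 UMI and 0 UMIs in both libraries together.

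Of the 9 chains, 8 were higher and 1 lower in the TGF-β1 library. Their median log2 ratio was 0.25, beside -0.01 over the 12116 genes whose mean CPM was 1 or more. At that minimum 2 of the 9 chains differed by more than 2-fold, against 6.91% of all genes (3.45% higher and 3.46% lower), with *COL24A1* higher and *COL5A3* lower. At a minimum of 10 CPM none of the 7 chains left differed by more than 2-fold, against 4.43% of 7658 genes. Added up, the 9 chains made 1.52% of the UMIs of control cells and 1.82% of those of TGF-β1 cells, a log2 ratio of 0.26. Within this total *COL1A1* went from 36.8% to 35.1%, *COL1A2* was at 28.0% in both, *COL3A1* went from 29.3% to 30.7%, *COL5A1* from 1.78% to 2.21% and *COL5A2* from 3.75% to 3.64%.

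**Figure D1:**
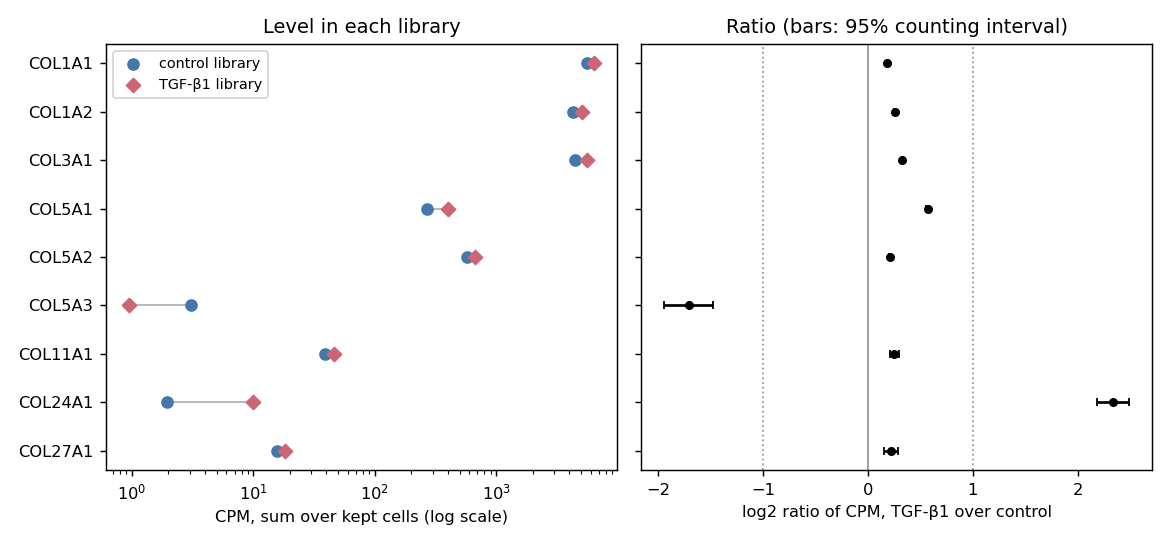
Left, CPM of each fibrillar chain in the control library (circles) and the TGF-β1 library (diamonds) on a log scale. Right, log2 ratio of TGF-β1 over control with its 95% counting interval, dotted lines at 2-fold: 7 chains lie between 0.19 and 0.57, *COL24A1* is at 2.33 and *COL5A3* at -1.71.

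Whether all cells or only some carried the difference was examined after thinning every kept cell to 20000 UMIs. The sum of the 9 chains had a median of 289 UMIs per cell in the control library, with a 5th percentile of 166 and a 95th of 446, and a median of 346 UMIs in the TGF-β1 library, with a 5th percentile of 212 and a 95th of 508. The low end, the middle and the high end were all higher with TGF-β1, and 74.2% of TGF-β1 cells were above the control median. The distributions overlapped widely, since only 14.7% of TGF-β1 cells were above the 95th percentile of the control. The spread relative to the mean was somewhat smaller with TGF-β1, with a coefficient of variation of 0.304 in control and 0.261 in TGF-β1 cells.

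The abundant chains had the same form. The median of *COL1A1* was 105 UMIs per control cell and 119 per TGF-β1 cell, and 64.1% of TGF-β1 cells were above the control median. For *COL1A2* the medians were 82 and 97 UMIs (72.2% of TGF-β1 cells above the control median), and for *COL3A1* they were 81 and 105 UMIs (75.2%). Each of the 3 was found in every kept cell of both libraries after thinning. Of these 3, *COL3A1* varied most between cells, with a variance of 19.1 times its mean in the control and 14.0 times in the TGF-β1 library, against 12.7 and 12.2 times for *COL1A1* and 7.11 and 7.23 times for *COL1A2*, where counting alone gives about 1. *COL5A1* had medians of 5 and 7 UMIs, with 65.6% of TGF-β1 cells and 38.0% of control cells above 5, and *COL5A2* had medians of 10 and 12 UMIs. The coefficients of variation of both type V chains (0.641 and 0.549 for *COL5A1*, 0.589 and 0.529 for *COL5A2*) were above that of *COL3A1* (0.467 and 0.358), but much of this is counting at their lower means. With the counting variance taken off, an alternative chosen after seeing the data, they were 0.464 and 0.413 for *COL5A1*, 0.507 and 0.451 for *COL5A2*, and 0.454 and 0.345 for *COL3A1*.

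**Figure D2:**
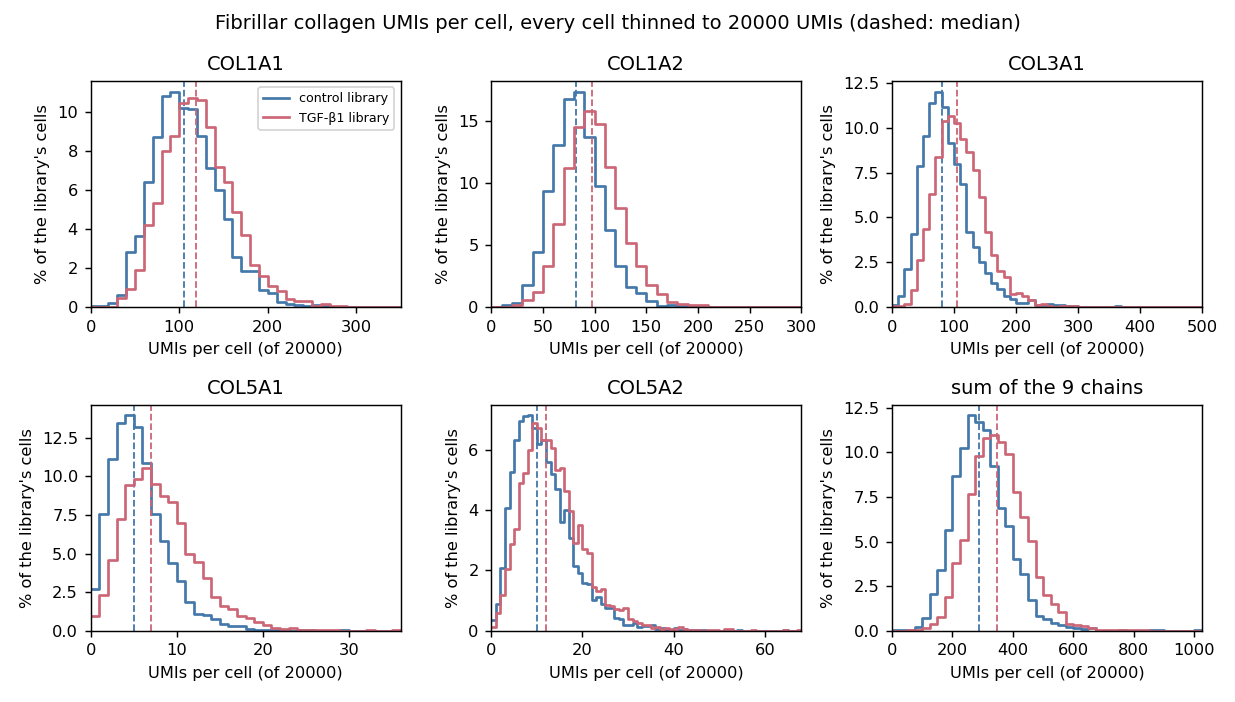
Percent of each library's cells (vertical axis) by UMIs per cell (horizontal axis) for 5 chains and the sum of the 9 chains, in 3865 control cells (blue) and 4513 TGF-β1 cells (red) thinned to 20000 UMIs, with dashed lines at the medians. The TGF-β1 median lies to the right of the control median in each panel (289 and 346 UMIs for the sum), while the highest single cells of *COL3A1* (490 and 346 UMIs) and of the sum (1017 and 835) are control cells.

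The rare chains were seen in part of the cells. At equal depth a UMI of *COL24A1* was found in 3.03% of control cells (2.51 to 3.62%) and 12.4% of TGF-β1 cells (11.5 to 13.4%), and without thinning in 5.54% and 20.2%. Few cells had many, and 10 or more UMIs were counted in 3 control and 24 TGF-β1 cells, up to 27 in 1 cell. At equal depth 3 or more *COL24A1* UMIs were found in 11 control cells (0.285%) and 86 TGF-β1 cells (1.91%). Counting alone at the same mean gives 0.0014% and 0.138%. *COL5A3* was found in 5.15% of control cells (4.47 to 5.89%) and 1.46% of TGF-β1 cells (1.13 to 1.86%), without thinning in 11.2% and 3.12%. *COL11A1* was found in 29.4% and 37.5% of cells (40.5% and 49.8% without thinning), and it was unevenly spread. Cells with 3 or more UMIs made 9.99% of control and 12.2% of TGF-β1 cells, where counting alone at the same mean gives 3.70% and 6.04%, and they held 64.0% and 60.7% of its UMIs. *COL27A1*, in 24.3% and 27.4% of cells, had a variance of 1.21 and 1.29 times its mean. Cells with 3 or more of its UMIs made 1.11% and 1.57%, where counting alone gives 0.374% and 0.603%. No cell type in these libraries lacks the chains, so the share of cells with a UMI from free RNA was not measured.

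Chain stoichiometry was compared as the ratio of summed UMIs. The ratio *COL1A1*/*COL1A2* was 1.32 (1.31 to 1.32) in the control and 1.25 (1.25 to 1.26) in the TGF-β1 library, a log2 change of -0.0712. The ratio *COL3A1*/*COL1A1* went from 0.795 (0.792 to 0.797) to 0.876 (0.874 to 0.878), a log2 change of 0.14. The ratio *COL5A1*/*COL5A2* went from 0.473 (0.468 to 0.478) to 0.606 (0.601 to 0.611), a log2 change of 0.36, the largest change among the abundant pairs. The 3 type V chains together had 0.0857 UMIs per type I UMI in the control and 0.0929 in the TGF-β1 library, and *COL5A3* had 0.0114 and 0.00236 UMIs per *COL5A1* UMI. In these libraries as a whole, *COL3A1* (log2 ratio 0.33) gained on *COL1A1* (0.19) and less on *COL1A2* (0.26). The type V chains together gained slightly on type I, which was a gain of *COL5A1* (0.57). The log2 ratio of *COL5A2* (0.21) lay between those of the type I chains. Within type V the α1 chain gained on α2 while the α3 chain lost.

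Within single cells the 2 type I chains kept a tighter ratio than type III did to type I, on similar medians of 187 and 189 UMIs per pair in control and 217 and 226 in TGF-β1 cells. The share of *COL1A1* in the UMIs of the pair had a median of 56.4% in control cells, with 52.0% and 60.5% as quartiles, and a median of 55.0% in TGF-β1 cells, with 50.9% and 58.8%. More *COL1A1* than *COL1A2* was counted in most cells, 82.9% of them in the control and 78.7% with TGF-β1. The spread of this share was 3.07 and 3.25 times the variance that binomial counting gives, while for *COL3A1* against *COL1A1* it was 8.27 and 6.41 times. For *COL3A1* the quartiles of its share ran from 37.6% to 50.4% in control and from 41.5% to 52.6% in TGF-β1 cells, and it exceeded *COL1A1* in 25.7% and 35.4% of cells. The share of *COL5A1* in its pair with *COL5A2* had a median of 31.3% in control and 36.8% in TGF-β1 cells, on medians of only 15 and 20 UMIs per cell, with a spread of 2.06 and 2.04 times binomial counting. Such a multiple grows with the UMIs per pair. It therefore cannot be set beside those of the deeper pairs, and does not make this pair the tighter one.

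**Figure D3:**
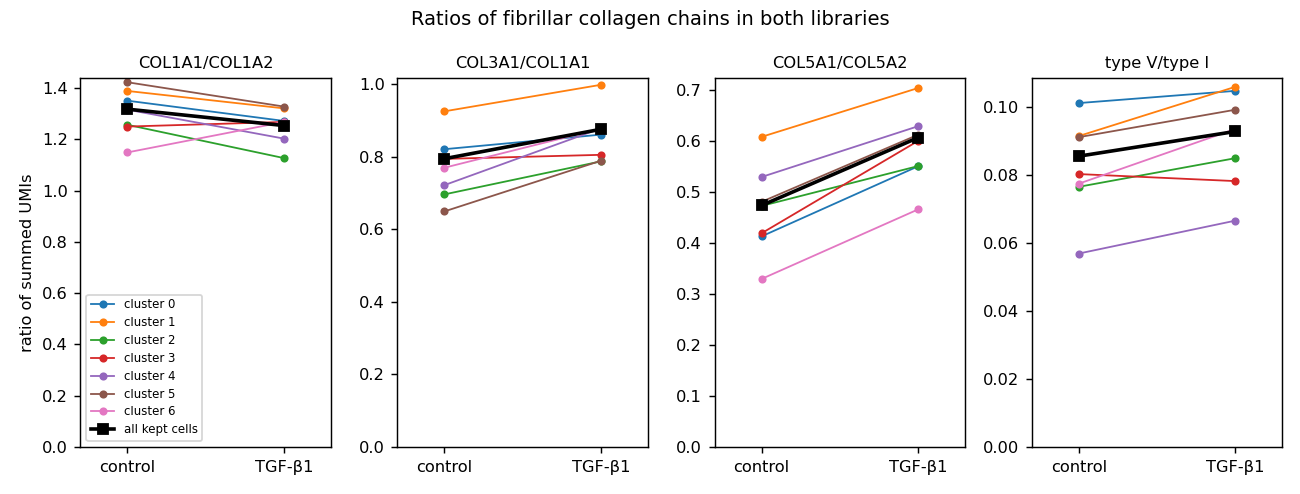
Ratio of summed UMIs (vertical axis, from 0) for 4 pairs in the control and TGF-β1 libraries, for all kept cells (black squares) and for each of 7 clusters (colours). The ratios *COL3A1*/*COL1A1* and *COL5A1*/*COL5A2* are higher with TGF-β1 in 7 of 7 clusters and type V over type I in 6 of 7, and *COL1A1*/*COL1A2* is lower in 5 of 7.

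Over cells of 1 library at equal depth, the type I pair also had the highest rank correlation. Spearman's rho of *COL1A1* with *COL1A2* was 0.66 over 3865 control cells and 0.65 over 4513 TGF-β1 cells, and Pearson's r after removal of counting noise was 0.77 and 0.75. None of the 7206 other genes with a symbol and a mean CPM of 10 or more had a higher rho with *COL1A1* in either library. With *COL3A1*, rho was 0.50 and 0.51 for *COL1A1* and 0.54 and 0.48 for *COL1A2*. *COL5A1* followed *COL1A1* (0.39 in both) and *COL3A1* (0.39 in both) more closely than its own partner *COL5A2* (0.26 and 0.27). *COL5A2* had rho of 0.12 and 0.20 with *COL1A1* and of 0.23 and 0.24 with *COL3A1*, which is its neighbour in the order of genes of the TB-T2T horse assembly. In the control, 118 other genes had a higher rho with *COL5A2* than *COL3A1* did, and in the TGF-β1 library 169. The rare chains had rho between -0.06 and 0.18 with the other chains, which the sparse counts limit. The highest were those of *COL11A1*, with *COL3A1* in the control (0.16) and with *COL5A1* in the TGF-β1 library (0.18).

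These are descriptions over cells that share a library and come from 4 mares, whose shares were not determined here. Within single clusters rho of *COL1A1* with *COL1A2* ran from 0.60 to 0.72 in the control and from 0.63 to 0.70 in the TGF-β1 library, and rho of *COL5A1* with *COL5A2* from 0.09 to 0.30 and from 0.09 to 0.29. The cell's total UMIs moved with the chains even after thinning, with rho of 0.28 and 0.38 for *COL1A1*, 0.22 and 0.26 for *COL1A2*, 0.24 and 0.29 for *COL5A1*, 0.17 and 0.14 for *COL5A2* and 0.10 and 0.18 for *COL3A1*. Given the total, the partial rho of *COL1A1* with *COL1A2* was 0.64 and 0.62. Summed cycling markers had rho between -0.06 and 0.03 with each chain.

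**Figure D4:**
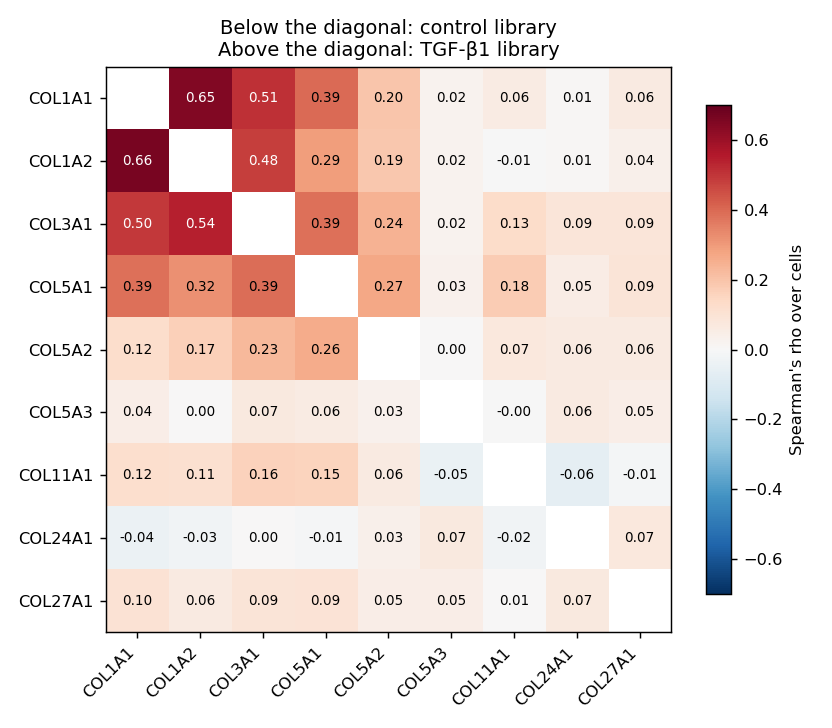
Spearman's rho between fibrillar chains over cells thinned to 20000 UMIs, with 3865 control cells below the diagonal and 4513 TGF-β1 cells above it, colour scale from -0.7 to 0.7. The block of *COL1A1*, *COL1A2*, *COL3A1* and *COL5A1* has rho of 0.29 to 0.66, *COL5A2* is looser and the rare chains are near 0.

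Outside the family, the genes most like *COL1A1* by the lower of its 2 rho values were *FN1* (0.30 in control, 0.40 in TGF-β1 cells), which encodes fibronectin, *FBN1* (0.29 and 0.29), which encodes the microfibril protein fibrillin-1, *FLNA*, *RAI14* and *RRBP1* (0.26 and 0.27), a ribosome-binding protein of the rough endoplasmic reticulum. Those most like *COL3A1* were *FN1* (0.40 and 0.51), *FBN1* (0.38 and 0.38), *SPARC* (0.38 and 0.38), a collagen-binding matrix protein, *VCAN* (0.36 and 0.33), a large proteoglycan, and *PARD3B*. Those most like *COL5A1* were *CACNA1C* (0.34 and 0.37), a calcium channel subunit, *FBN1* (0.34 and 0.37), *MYH9*, *FNDC3B* and *DST*. *FN1* and *FBN1* led for both type I α1 and type III, and in the control their rho was below those of *COL1A1*, *COL1A2* and *COL3A1* with each other. In the TGF-β1 library *FN1* had a higher rho with *COL3A1* (0.513) than *COL1A1* (0.510) and *COL1A2* (0.484) did. By the higher of the 2 rho values, the most negative gene for *COL1A1*, *COL1A2*, *COL3A1* and *COL5A1* was *S100A11*, a small calcium-binding protein, with rho of -0.40 and -0.38 for *COL1A1*. It was named after its values were seen, as were the genes most like the remaining chains. These were *SPARC* for *COL1A2* (0.34 and 0.32), *FNDC3B* for *COL5A2* (0.36 and 0.41) and *MYH10* for *COL11A1* (0.27 and 0.25). For the rarer chains they were *COL6A2* for *COL5A3* (0.10 and 0.08), *EDNRB* for *COL24A1* (0.11 and 0.14) and *FNDC3B* for *COL27A1* (0.11 and 0.13). The most negative gene for *COL24A1* was *ACTA2* (-0.13 and -0.18).

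The cells were grouped into 7 clusters by genes other than the fibrillar chains, numbered 0 to 6 and not named, except that cluster 5 (130 control and 155 TGF-β1 cells) had each of the 7 cycling markers found at more than 2 times its level in the other cells. Mares may differ between clusters, and the 2 cannot be told apart here. *COL1A1*, *COL1A2*, *COL3A1*, *COL5A1* and *COL5A2* were higher with TGF-β1 in 7 of 7 clusters, each time with a counting interval above 0. The share of all genes that do so is not given here. For types I and III the counts make these intervals narrow, so a small shift is enough (*COL1A1* in cluster 1, 0.0259, 0.0186 to 0.0333). The log2 ratios ran from 0.03 to 0.47 for *COL1A1*, 0.10 to 0.36 for *COL1A2*, 0.14 to 0.66 for *COL3A1*, 0.40 to 1.05 for *COL5A1* and 0.13 to 0.55 for *COL5A2*. That of *COL3A1* was above that of *COL1A2* in every cluster except cluster 0, the largest. There *COL3A1* had 0.345 (0.337 to 0.352) and *COL1A2* had 0.363 (0.355 to 0.370). Cluster 1 had the highest control levels of *COL1A1* (6421 CPM), *COL1A2* (4622 CPM), *COL3A1* (5939 CPM) and *COL5A1* (381 CPM) and the lowest ratio of each. Cluster 6, the smallest with 107 and 56 cells, had the lowest control levels of the same chains (*COL1A1* 4228 CPM, *COL3A1* 3254 CPM) and the highest ratio of *COL1A1*, *COL3A1* and *COL5A1*. The control level is the denominator of the ratio, so level and ratio are not independent. The highest and lowest cluster differed 1.82-fold for *COL3A1* in the control and 1.35-fold in the TGF-β1 library, 1.52-fold and 1.22-fold for *COL1A1*, and 2.52-fold and 1.94-fold for *COL5A1*. The control values rest in part on cluster 6. Without it, an alternative chosen after seeing the data, the highest and lowest cluster differed 1.69-fold in the control for *COL3A1*, 1.27-fold for *COL1A1* and 2.18-fold for *COL5A1*, and the TGF-β1 values were as above.

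*COL11A1* was at 107.9 CPM in cluster 1 and at 8.98 CPM in cluster 6 of the control, a 12.0-fold range. In the TGF-β1 library the range was 4.30-fold. The control low rests on 52 UMIs in cluster 6, and without that cluster, again chosen after seeing the data, the control range was 7.59-fold. Cluster 1 held 51.2% of its UMIs on 17.3% of control cells and 51.1% of its UMIs on 23.4% of TGF-β1 cells. In cluster 1 it was lower with TGF-β1 (96.5 CPM, log2 ratio -0.16, -0.22 to -0.10), and in the other 6 clusters it was higher (log2 ratio 0.09 to 1.68, 5 intervals above 0). With equal cluster shares in both libraries the log2 ratio of *COL11A1* was 0.13. *COL24A1* was higher with TGF-β1 in 7 of 7 clusters, 6 of them with an interval above 0, with cluster 0 highest in both libraries (4.25 and 18.8 CPM) and the largest ratio in cluster 1 (1.03 and 9.72 CPM, log2 ratio 3.24). *COL5A3* was lower in the 6 clusters with more than 3 UMIs in both libraries, 4 of them with an interval below 0, and was also highest in cluster 0 (5.25 and 1.67 CPM). *COL27A1* was higher in 6 clusters and lower in cluster 2 (log2 ratio -0.11, -0.29 to 0.07).

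**Figure D5:**
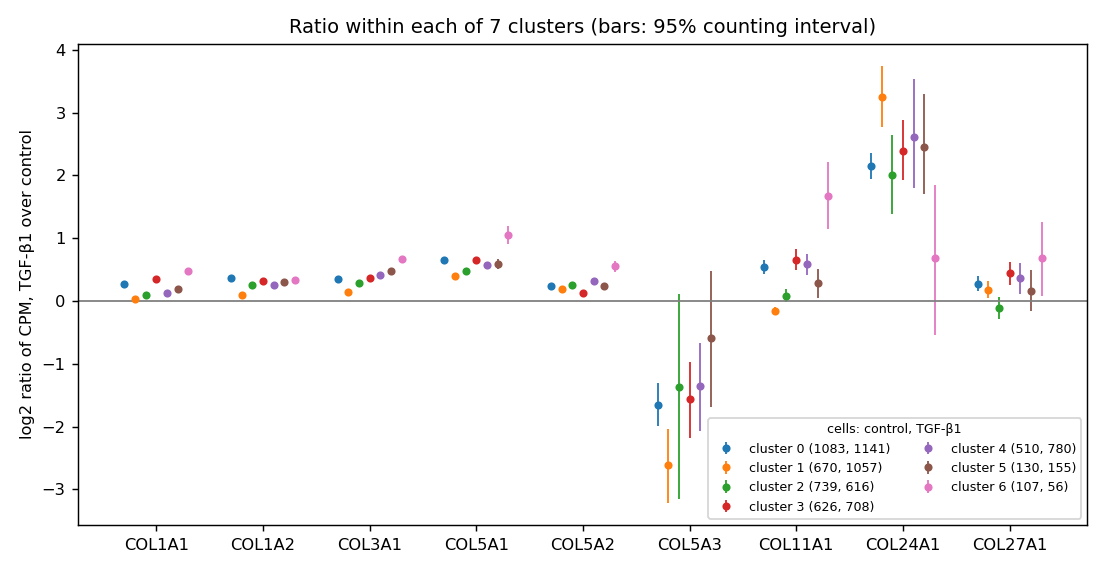
Log2 ratio of CPM, TGF-β1 over control, of each fibrillar chain (horizontal axis) within each of 7 clusters (colours, cells per library in the legend), with 95% counting intervals. The 5 abundant chains lie above 0 in all 7 clusters, *COL11A1* is below 0 in cluster 1, and no ratio is drawn for *COL5A3* in cluster 6, where 3 or fewer TGF-β1 UMIs were counted.

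The genes that make, trim and cross-link fibrillar collagen were mostly higher with TGF-β1 as well, with list medians above that of the chains. Of the 12116 genes with a mean CPM of 1 or more, 5897 were higher with TGF-β1, and 6.91% differed by more than 2-fold. At this minimum, 17 of 18 hydroxylases and chaperones of procollagen were higher and 1 was lower, with a median log2 ratio of 0.36, and 1 of them exceeded 2-fold (*P3H2*, named after its values were seen). The largest among those with at least 10 CPM were *PLOD2* (173 and 344 CPM, log2 ratio 0.99), which hydroxylates telopeptide lysines, and *P4HA3* (29.2 and 51.1 CPM, 0.81), a prolyl 4-hydroxylase subunit, while *CREB3L1*, a transcription factor of collagen-secreting cells, was lower (-0.42). Of the 8 genes of propeptide removal, 6 were higher, 1 of them over 2-fold, and 2 lower (median 0.48). *TLL1*, a C-proteinase, was at 4.98 and 43.8 CPM (log2 ratio 3.14), the enhancer *PCOLCE2* had 0.79, the enhancer *PCOLCE* was lower (352 and 224 CPM, -0.65), and the N-proteinase *ADAMTS2* was lower (-0.31). Of the 5 lysyl oxidases, 4 were higher and 3 exceeded 2-fold (median 1.01), with *LOX* at 68.6 and 179 CPM (1.38) and *LOXL4* at 31.2 and 63.0 CPM (1.01), while *LOXL1* was lower (-0.17).

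Genes of the fibril surface went both ways, with 4 of 10 higher (2 over 2-fold) and 6 lower (3 over 2-fold) and a median log2 ratio of -0.17. *FN1* (1934 and 6087 CPM, 1.65) and *COL12A1* (374 and 1067 CPM, 1.51), a collagen bound to fibrils, were highest. *PRELP* (31.8 and 7.01 CPM, -2.18) and *COL14A1* (35.6 and 15.3 CPM, -1.22) were lowest among those with at least 10 CPM, and the rarer *TNXB*, named after its values were seen, had -1.58 (13.3 and 4.46 CPM). Of 6 collagen receptors, 4 were higher and 2 lower, 1 in each direction over 2-fold (median 0.22). These were the integrin chain *ITGA2* (315 and 2178 UMIs, 2.73) and the receptor kinase *DDR1* (11.7 and 5.35 CPM, -1.13), both named after their values were seen, and among those with at least 10 CPM the highest were *ITGA1* at 0.56 and *ITGB1* at 0.37. Of 6 genes of collagen breakdown and uptake, 4 were higher, 2 of them over 2-fold, and 2 lower (median 0.53), led by the rare *MMP1* (2.27 and 7.38 CPM, 1.70), an interstitial collagenase named after its values were seen. Among those with at least 10 CPM, *FAP* (67.9 and 211 CPM, 1.63), a surface peptidase, and *MRC2* (0.64), an uptake receptor, were highest, and *CTSK* (-0.18) and *MMP14* (-0.04) lowest. Of 7 contractile and TGF-β response genes, 6 were higher, 1 of them over 2-fold, and 1 lower (median 0.40), with *CNN1* at 1.23, *CCN2* at 0.85 and *MYL9* at -0.02.

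Cell by cell, the lists were read beside all 7206 genes correlated with *COL1A1*, whose rho had a median of 0.02 in both libraries and exceeded 0.1 in both for 6.26% of genes. For *COL1A2* that share was 1.79%, for *COL3A1* 7.44%, for *COL5A1* 15.4% and for *COL5A2* 15.9%. Of 17 hydroxylases and chaperones with at least 10 CPM, 3 had rho above 0.1 with *COL1A1* in both libraries, with a median of 0.04 in both. *SERPINH1*, the collagen-specific chaperone, had rho of 0.01 and -0.10 with *COL1A1* and of -0.22 and -0.30 with *COL5A2*, and *SPARC* was highest with 0.18 and 0.27 for *COL1A1*. Among 4 lysyl oxidases rho with *COL1A1* ran from -0.03 to 0.12 in the control and from -0.02 to 0.21 in the TGF-β1 library, highest for *LOXL2*, and 2 of the 4 exceeded 0.1 in both libraries. Of the 6 genes of propeptide removal, 1 had rho above 0.1 with *COL1A1* in both. Of 8 fibril surface genes, 3 had rho above 0.1 with *COL1A1* and 6 with *COL3A1* in both libraries. *FN1* had 0.40 and 0.51 with *COL3A1*, the latter above the 0.48 of *COL1A2* with *COL3A1*, and *COL12A1* had 0.28 and 0.27 with *COL5A2*. None of the 7 contractile and TGF-β response genes had rho above 0.1 with any of the 5 abundant chains in both libraries. By chain, 1.79% to 15.9% of all genes did, so a count of none among 7 does not set this list apart. *ACTA2*, the smooth muscle actin used as a myofibroblast marker, had -0.03 and -0.04 with *COL1A1*, 0.02 and 0.04 with *COL1A2* and -0.03 and -0.23 with *COL3A1*. With *COL5A1* it had 0.04 and -0.10, and with *COL5A2* 0.04 and -0.105. *SERPINH1*, *SPARC*, *LOXL2* and *ACTA2* were named here after their values were seen.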

How the data were processed

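The deposited counts are UMI counts per gene and barcode that the authors made from 10x Genomics 3′ libraries by aligning to EquCab3.0 with Cell Ranger, and cover the barcodes it called as cells. The annotation was Ensembl's. The submitters' processing notes name Cell Ranger 7.1.0 and the file header names 8.0.1. Whether intronic reads were counted is not given in the sources used here. Gene symbols and barcodes were used as deposited. The study's cell filters had not been applied to the counts and were applied here. Its doublet removal and assignment of mares with Souporcell rest on the reads and were not repeated, nor was its edgeR test within clusters, which needs mares. In place of doublet removal, the 2% of cells with the most UMIs were removed as an alternative.

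For each library and each cluster, the kept cells' UMIs were added up and scaled to CPM (Python 3.11.15, pandas 2.3.3, scipy 1.17.1, numpy 2.4.6). Log2 ratios have no pseudocount. Over a whole library a ratio needed more than 3 UMIs on 1 side at least, and within a cluster more than 3 on each side. Intervals are exact binomial (Clopper-Pearson). UMIs of 1 library are not replicates of a condition, and mares and repeated cultures are not in the intervals. For distributions, correlations and shares of cells, each cell was thinned to 20000 UMIs without replacement. Correction of Pearson's r for counting noise replaced the variance by variance minus mean. Clusters were built in Seurat 5.3.0 (R 4.3.3) with log normalization, 2000 variable genes less 8 fibrillar chains among them, canonical correlation integration, 30 dimensions and resolution 0.5. Figures were drawn in matplotlib 3.10.9, and the ratios and the corrected r were tested on simulated data.

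The members and lists were chosen with earlier results of these data known. The genes named are the members, *COL2A1* and *COL11A2*, the 5 genes most like *COL1A1*, *COL3A1* and *COL5A1* by the lower rho of both libraries, and the 2 largest ratios in each direction of each list at a mean of at least 10 CPM. *COLGALT1* and *MIA3* of the lists and the markers *KRT18*, *KRT19* and *MKI67* were not found by symbol. All 9 members matched the table of RefSeq genes of the TB-T2T assembly, used for neighbours only. Other treated samples of the study were not analysed here. The alternatives changed the cell filters, the scaling, the averaging, the cluster settings and the fold and CPM limits. A partial correlation given total UMIs, and chain ratios at equal cluster shares, were chosen after seeing the data.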

Additional observations from a re-analysis of the deposited data

Results flagged for a closer look

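The barcodes that did not pass the filters, 519 in the control and 611 in the TGF-β1 library, entered no comparison of the main values and were used, in part or in full, only in alternatives with other filters. The 9 chains made 2.04% of the control and 2.56% of the TGF-β1 UMIs of these barcodes, where kept cells had 1.52% and 1.82%. Their median depth was 3728 and 6107 UMIs and their median mitochondrial share 3.23% and 10.2%, against 1.47% and 1.22% in kept cells. *COL24A1* was at 46.4 CPM in these TGF-β1 barcodes (207 UMIs in 69 barcodes, at most 12 in 1 barcode), against 9.84 CPM in kept TGF-β1 cells and 3.70 CPM (14 UMIs) in the control barcodes outside the filters. In the TGF-β1 library it was at 77.4 CPM in the 165 such barcodes with under 4% mitochondrial UMIs and at 31.4 CPM in the 446 with more. Including these barcodes, the log2 ratio of *COL24A1* over the libraries was 2.41, against 2.33 in kept cells. The cause was not tested.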

How the results depend on the processing

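Under 9 alternatives no chain's log2 ratio changed sign, with ranges of 0.16 to 0.21 for *COL1A1*, 0.25 to 0.28 for *COL1A2*, 0.30 to 0.35 for *COL3A1*, 0.55 to 0.59 for *COL5A1*, 0.21 to 0.24 for *COL5A2*, -1.83 to -1.62 for *COL5A3*, 0.13 to 0.29 for *COL11A1*, 2.21 to 2.41 for *COL24A1* and 0.22 to 0.26 for *COL27A1*. The median of the chains ran from 0.23 to 0.27. The number of genes past the fold limit was 339 of 7658, 837 of 12116 at a minimum of 1 CPM and 970 at a 1.5-fold limit. No chain with at least 10 CPM passed 1.5-fold in the main values, but *COL5A1*, at 1.49-fold, did with the size factor (log2 ratio 0.59) and with the highest 2% of cells by UMIs removed (0.59). The log2 change of *COL1A1*/*COL1A2* was -0.0771 with the highest 2% of cells by UMIs removed, -0.0808 as a mean over cells and -0.0825 at equal cluster shares. That of *COL3A1*/*COL1A1* was 0.15 with all barcodes and with the highest 2% removed, 0.18 as a mean over cells and 0.12 at equal cluster shares. That of *COL5A1*/*COL5A2* was 0.30 as a mean over cells and 0.32 at equal cluster shares, and that of type V over type I was 0.13 with all barcodes and with the highest 2% removed. For the 6 pairs of abundant chains that were recomputed, no rho moved by more than 0.1, and 81.9% to 88.4% of chain and cluster pairs were higher with TGF-β1 under other cluster settings, against 87.1%. The same share over all genes is not given here. No replicate could be left out, as each condition was 1 library. No paired analysis was possible because mares were not assigned to cells here and the labels give no replicate numbers. Depth makes the counting intervals of abundant chains narrower than the shifts between settings, and it limits *COL5A3* and *COL24A1* within clusters.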
